A study of Rattus norvegicus with 10 samples.

Results

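The genes described here are the interleukins, the tumour necrosis factor (TNF) superfamily and the receptors of both, as measured in the supraoptic nucleus of the rat after a knockdown of Opn3. They were taken by name from the deposited table: every symbol that begins with Il, Tnfsf or Tnfrsf and goes on with a digit, plus Tnf, Lta and Ltb. The rule found 110 genes, each with 1 identifier, among the 32623 genes of the table. Of these, 70 had a mean of at least 10 normalized counts over the 10 samples and were tested, among 15597 genes that passed the same filter.

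RNA was sequenced from 10 samples of the supraoptic nucleus, a paired hypothalamic nucleus whose magnocellular neurons release vasopressin and oxytocin. The rats were male, of the outbred Sprague Dawley strain, and their age was not given in the sources used here. In each rat the nucleus of one side was injected with an adeno-associated virus that carried an Opn3 hairpin (shOpn3, 5 samples), and the nucleus of the other side with one that carried a hairpin with no target (shControl, 5 samples). Both groups had therefore been injected with a virus, and the controls came from the same brains. After 2 weeks each nucleus was taken with a 1 mm punch from 100 µm sections and extracted alone. The promoter that drove the hairpins, the side that received each virus and the cells that took it up were not given in the sources used here. A punch holds neurons, glia, vessel cells and any immune cells of the nucleus together, so a lower or higher value cannot be told apart as fewer or more cells of a type or as less or more RNA per cell.

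Interleukins and TNF ligands are signals that cells of the immune system, and in the brain microglia, astrocytes and some neurons, release or display on their surface. Interleukins act through receptors built from several chains, some of them shared between cytokines: the interleukin-1 family signals through Myd88 and NF-kappaB, and most other interleukins signal through JAK kinases and STAT factors. TNF receptors recruit TRAF adaptors or death domains and lead to NF-kappaB activity or cell death. Antagonists, decoy receptors and binding proteins restrain many of these signals. In the hypothalamus, interleukin-1 and interleukin-6 are known for fever, for sickness behaviour and for actions on hormone release.

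The libraries held 33402693 to 39958578 reads in shControl and 33158341 to 37263244 in shOpn3. Opn3, an opsin with expression outside the eye, was at 719, 694, 841, 1007 and 261 normalized counts in shControl replicates 1 to 5, against 290, 193, 159, 154 and 145 in the same replicates of shOpn3. It fell by 1.82 ± 0.32 on the log2 scale (SE; adjusted p = 0.00226, limma). The groups overlapped through shControl replicate 5, which lay below shOpn3 replicate 1. Vasopressin and oxytocin transcripts fell as well: summed, they ranged from 52511 to 158977 in shControl and from 8429 to 30626 in shOpn3. Of the markers of other cells, 9 of 10 microglial, 3 of 6 astrocyte and 5 of 7 tested T cell markers were higher. Lower were 6 of 6 oligodendrocyte markers. Of 5 neuron markers 1 was higher and 2 were lower. Also higher were 1 of 5 border macrophage, 1 of 4 monocyte and 1 of 2 tested NK cell markers. Of 3 mast cell markers only Kit was tested, and it was higher. Cpa3 and Tpsb2, the others, had 10 and 2 reads over all libraries, so no change in mast cells is read from Kit. Among 5 endothelial, 3 B cell, 2 oligodendrocyte precursor and 1 neutrophil marker, 0 differed. The measure is a limma adjusted p under 0.05, met by 10.4% of all genes higher and 8.48% lower. No library was left out of the main comparison.

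A gene is called below where its adjusted p was under 0.05 in limma's test of log2(normalized count + 1), adjusted over all 15597 genes. Fold changes are shOpn3 over shControl on that log2 scale, where a gene of few reads changes by less than its counts do, and their errors are standard errors. Of the 70 tested genes, 33 (47.1%) were called, against 18.8% of all genes tested. The calls went mainly in 1 direction: 31 were higher in shOpn3 (10.4% of all genes) and 2, Il1rap and Il21, were lower (8.48% of all genes). The remaining 37 were not called, 24 with a positive and 13 with a negative fold change. The median log2 fold change was 0.53 over the tested members and -0.02 over all genes tested. In 27 members the 5 values of one group lay wholly on one side of those of the other, against 15.3% of all genes (8.03% higher and 7.23% lower in shOpn3). Of the called genes, 26 did so, and 31 of 33 moved the same way in all 5 pairs of samples with equal numbers. These genes were called on the same values, so both counts describe them and add no evidence. The shares over all called genes were not counted. A log2 fold change of at least 1 was reached by 15 of the called genes, a size and call met by 3.81% of all genes.

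9 of the 70 passed the filter only through the group in which they were higher, so their selection and their difference are linked. They were Tnfsf18, Tnfrsf13c, Tnfrsf4, Il1r2, Il11, Il12rb2 and Il23r through shOpn3, and Il21 and Tnfrsf25 through shControl. Tnfsf18, Tnfrsf13c, Il23r and Il21 were among the called. With the replicate number as a block, 40 members were called, 32 of them shared with the fit without it, against 30.3% of all genes in the block fit. The 8 gained with the block were Tnfrsf14, Il1rl2, Il18, Il12a, Tnfsf10, Il34, Il1r1 and Il11ra1, and Tnfsf15 was lost.

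**Figure D1:**
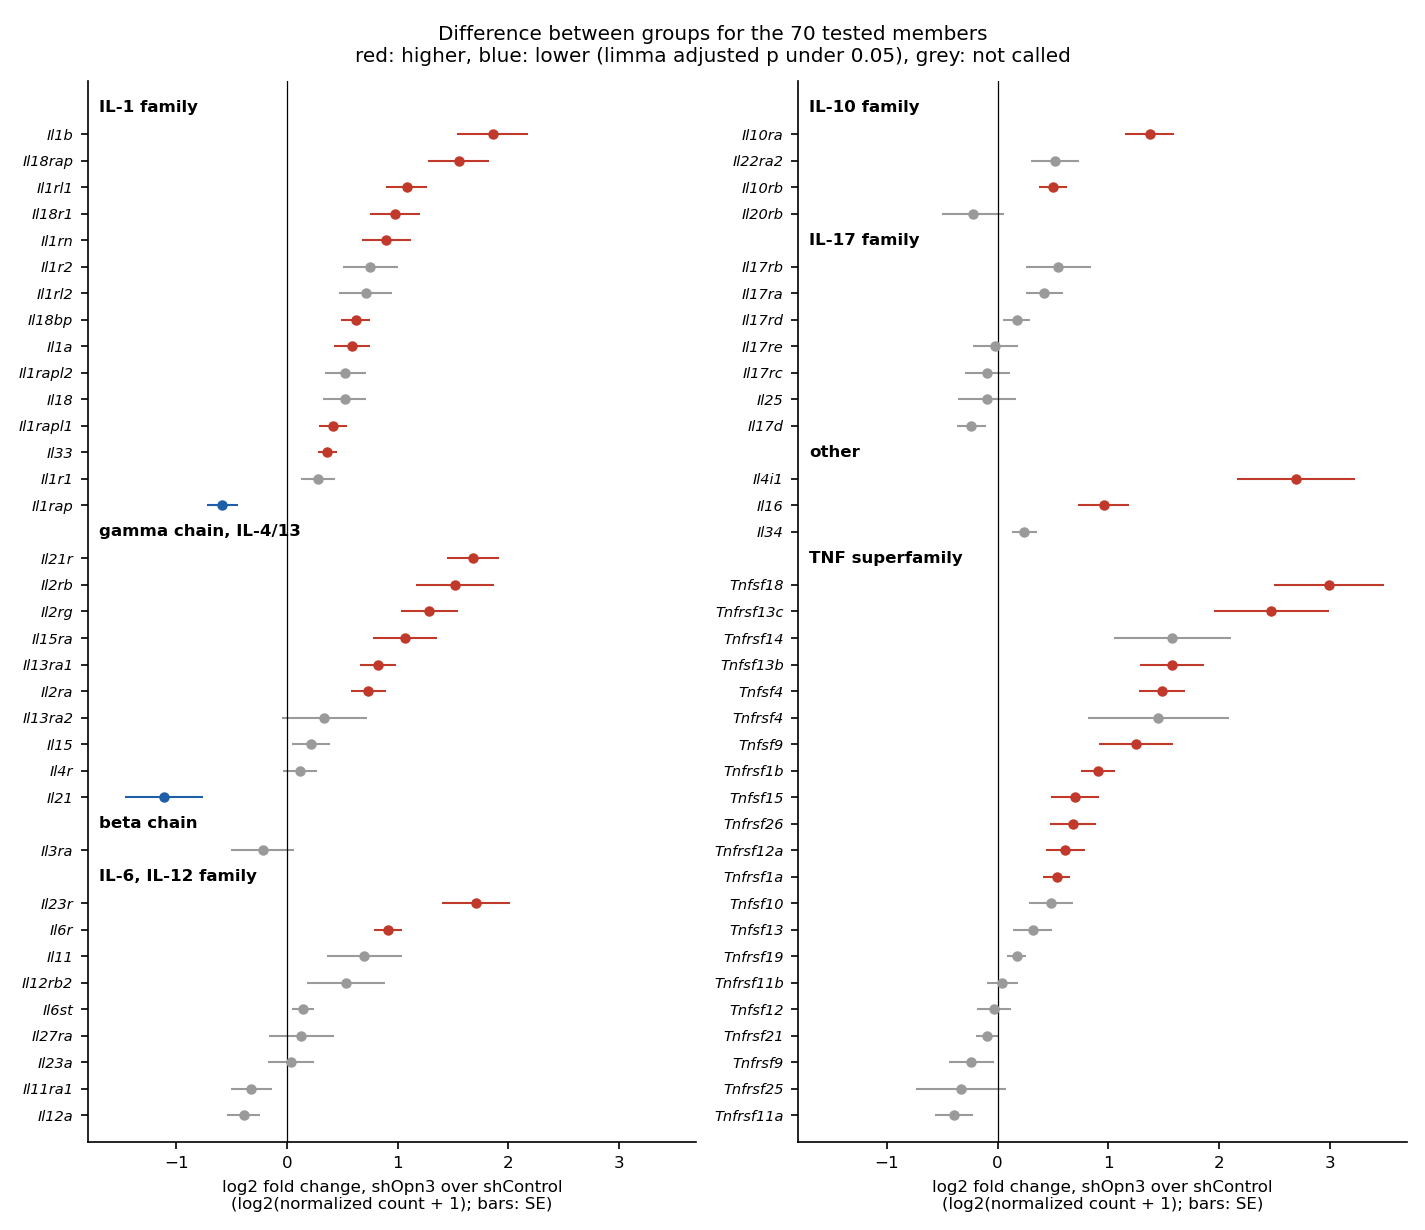
Log2 fold changes (x axis, shOpn3 over shControl) of the 70 tested members, each on its own line, with bars for the standard error. The 31 genes called higher and the 2 called lower are coloured, and the 37 others are grey, with a range from -1.11 for Il21 to 3.0 for Tnfsf18.

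The rise was not even over the shOpn3 samples. Among the 31 genes called higher, replicate 4 was the highest shOpn3 sample in 25, and replicate 1 was the lowest in 15. Replicates 3 and 4 were the 2 highest in 26 (83.9%), against 44.1% of all 1618 genes called higher. The summed normalized counts of the 10 microglial markers had the same 2 samples at the top, with 38788 and 47276 in shOpn3 replicates 3 and 4, against 29519, 24654 and 33488 in the others and 15439 to 18885 in shControl. The summed T cell markers, most of which was Cd4, a gene that rat macrophages and microglia also carry, were 1698 to 4631 in shOpn3 and 762 to 977 in shControl. What part these cells have in the members' values was not tested. The number of called members, 33 with all samples, was 20 without both samples of number 3, 19 of them higher. Without shOpn3 replicate 3 alone it was 25. Calls over all genes fell as well, from 2940 to 1604 and to 1987 in the same fits, so the loss is not particular to the members.

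**Figure D2:**
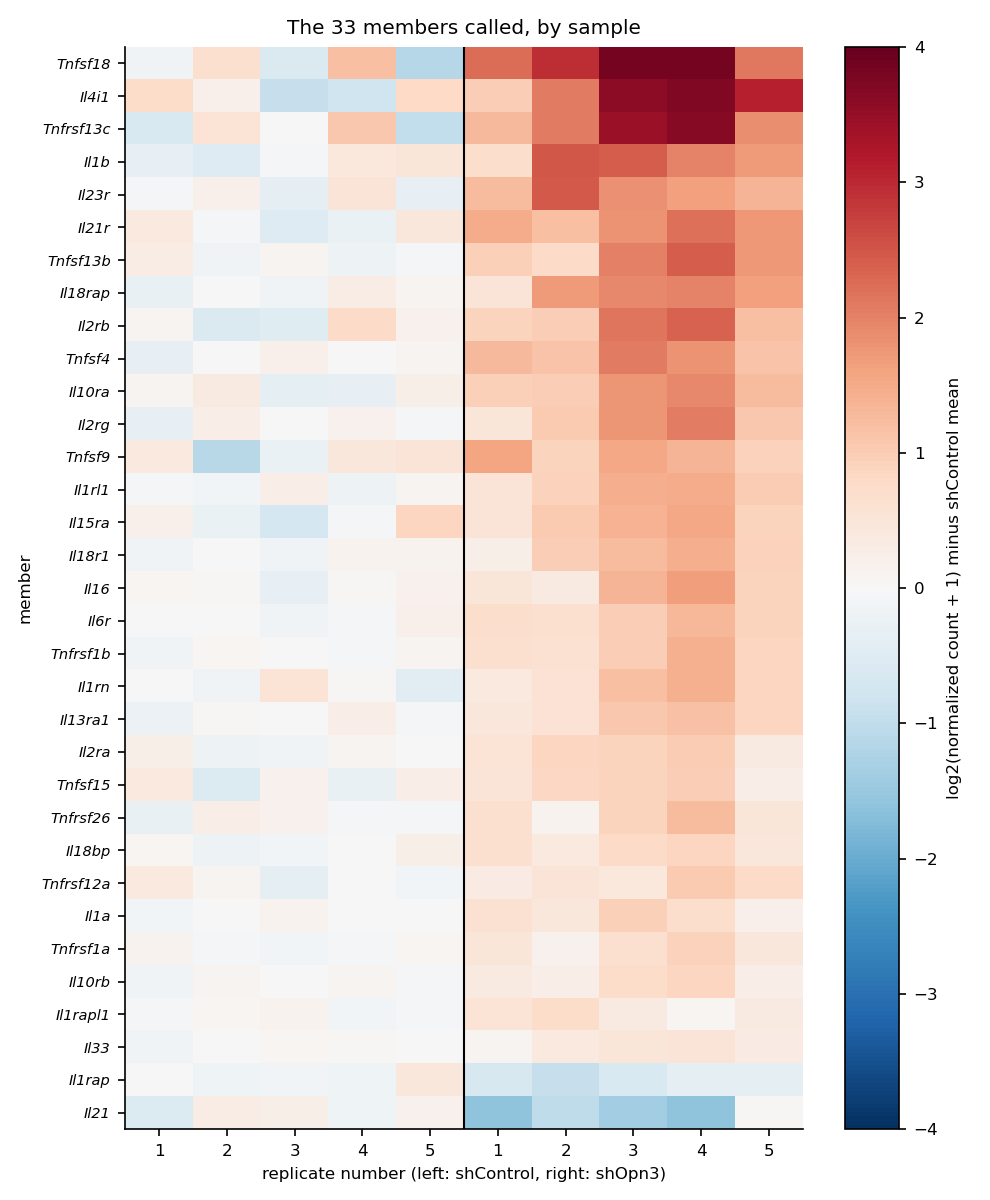
Values of the 33 called members in each of the 10 samples, as log2(normalized count + 1) minus the shControl mean (red above, blue below), with shControl left and shOpn3 right of the line. The 31 upper rows are genes called higher, in 26 of which shOpn3 replicates 3 and 4 were the 2 highest shOpn3 samples. The last 2 rows are Il1rap and Il21.

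Promoters of the members were looked up in RefSeq (assembly GRCr8), where 86 of the 110 genes had an entry. The 250 bases before each start were searched on both strands for 4 motifs that stand for factors downstream of these cytokines or for the core promoter. Members were counted by gene, with a match before any of their starts, whereas the share of all promoters is per entry. A gene with several starts has more chances of a match, so the counts and shares are unlike measures. The interferon-stimulated response element was searched as 2 copies of GAAA with any 2 bases between them. It was in 3.41% of all 33469 promoters and in 10 of the 86 members with an entry. Of these 86, 27 were called higher, and 3 of the 27 held it: Il23r, Tnfrsf1b and Tnfsf13b. The gamma-activated site TTCNNNGAA was in 7.67% of all promoters, in 9 of the 86 and in 2 of the 27, Il18r1 and Tnfrsf12a. The NF-kappaB consensus was in 3.54% of all promoters, in 11 of the 86 and in 1 of the 27, Il4i1. The core element TATAAA was in 12.9% of all promoters, in 18 of the 86 and in 9 of the 27. These counts describe letters in a window and not bound sites. The stretches below show the response element in the 3 called genes that held it, as a member of each role (a receptor of interleukins, a TNF receptor and a TNF ligand), and the NF-kappaB consensus of Il6, whose reads are described further on. Each is read 5′ to 3′ along the gene's strand, which is the minus strand in all 4, and capitals mark the motif. They lie at chr4:98003760-98003879 (Il23r), chr5:162387412-162387531 (Tnfrsf1b), chr16:86194500-86194619 (Tnfsf13b) and chr4:5894576-5894695 (Il6). In Tnfrsf1b the motif is on the opposite strand and runs up to the end of the stretch.
Il23r: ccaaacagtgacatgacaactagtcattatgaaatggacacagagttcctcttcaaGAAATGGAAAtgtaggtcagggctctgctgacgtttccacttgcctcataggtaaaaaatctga
Tnfrsf1b: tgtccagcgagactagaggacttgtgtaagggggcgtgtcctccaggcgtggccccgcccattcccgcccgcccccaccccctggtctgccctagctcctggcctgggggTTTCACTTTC
Tnfsf13b: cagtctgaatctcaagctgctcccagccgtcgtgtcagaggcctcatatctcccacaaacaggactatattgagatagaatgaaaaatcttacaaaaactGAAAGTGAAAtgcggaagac
Il6: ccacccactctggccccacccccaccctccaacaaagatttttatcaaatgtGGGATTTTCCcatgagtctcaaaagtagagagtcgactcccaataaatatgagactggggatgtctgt

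In the interleukin-1 family 20 genes were listed and 15 tested: 9 were higher, 1 was lower and 5 were not called. Il1b, the secreted pro-inflammatory ligand that is matured by caspase 1, had 38.7, 33.6, 45.9, 65.5 and 67.5 normalized counts in shControl replicates 1 to 5. In shOpn3 replicates 1 to 5 it had 79.6, 273, 266, 195 and 158. The groups did not overlap, although shOpn3 replicate 1 stood much closer to the controls than to the other shOpn3 samples. The mean rose from 50.3 ± 15.5 to 194 ± 80.4 (SD, n = 5 each), and the difference was 1.86 ± 0.32 on the log2 scale (adjusted p = 0.00216, limma). Il1a, its sister ligand that is active without maturation, was even over the controls at 46.9, 49.9, 55.1, 50.6 and 49.6, and had 77.7, 69.0, 99.1, 83.1 and 58.6 in shOpn3. These groups were apart as well, but the rise was smaller, 0.59 ± 0.16 (adjusted p = 0.0231, limma). That call was lost without shControl replicate 2, shOpn3 replicate 3 or shOpn3 replicate 4, with adjusted p from 0.0505 to 0.0686 in limma.

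Il33, an alarm signal that cells hold in the nucleus and free on damage, had 2000, 2242, 2352, 2295 and 2195 in shControl. The shOpn3 samples had 2399, 2876, 3110, 3146 and 2780, all above every control. The difference was small and tight, 0.36 ± 0.08 (adjusted p = 0.0103, limma). Il18, another ligand that caspase 1 matures, had 369, 370, 377, 381 and 424 in shControl and 327, 562, 690, 780 and 514 in shOpn3. Replicate 1 was the only shOpn3 sample under the controls, and the difference of 0.52 ± 0.19 did not pass (adjusted p = 0.0789, limma). It passed without that sample (0.71, adjusted p = 0.00306), with the replicate block (0.0442) and by edgeR (0.0494), DESeq2 (0.0167) and voom (0.0146). RefSeq places Il18 over part of Bco2, a carotenoid-cleaving enzyme gene that was itself higher by 0.68 (adjusted p = 0.0320, limma), and over Tex12. Whether reads were counted by strand was not given in the sources used here, so reads of the overlapping stretches cannot be told apart. The 4 remaining ligands, of which Il36g and Il36b are agonists and Il36a and Il1f10 were at 0 reads, did not reach the filter.

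Of 3 tested restraints of the interleukin-1 family, 2 were higher. Il1rn, the receptor antagonist, had 90.7, 83.4, 136, 95.5 and 69.6 in shControl and 123, 139, 217, 250 and 171 in shOpn3. The groups overlapped through shControl replicate 3, and each shOpn3 sample was above the control of its own number, with a log2 fold change of 0.90 ± 0.22 (adjusted p = 0.0145, limma). Il18bp, the soluble binding protein of interleukin-18, had 142, 117, 126, 137 and 159 in shControl and 210, 179, 233, 244 and 186 in shOpn3, with no overlap. It rose by 0.62 ± 0.13 (adjusted p = 0.00609, limma). Il1r2, a decoy receptor, was near the filter at 8.67 ± 0.464 and 15.8 ± 4.30 normalized counts (SD, n = 5 each). Its groups did not overlap, its adjusted p was 0.0522 in limma, and it passed without shOpn3 replicate 5 (0.92, adjusted p = 0.0218), by edgeR (0.0343) and with TMM scaling (0.0487).

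Among the 8 tested receptors of this family, 4 were higher and 1 was lower. Il18rap, the accessory chain of the interleukin-18 receptor, had 17.3, 21.4, 19.4, 26.2 and 23.2 in shControl and 30.7, 71.2, 84.1, 87.9 and 67.8 in shOpn3, with no overlap, and rose by 1.55 ± 0.27 (adjusted p = 0.00219, limma). Its partner Il18r1, the ligand-binding chain, rose by 0.98 ± 0.22 (adjusted p = 0.00994). Whether these chains and the ligand Il18 changed by different amounts was not tested. Il1rl1, the receptor of interleukin-33, had 95.8, 92.6, 119, 86.1 and 107 in shControl and 144, 189, 275, 281 and 202 in shOpn3. The values were apart and rose by 1.08 ± 0.19 (adjusted p = 0.00200, limma), so that both the ligand and the receptor of this pair were called.

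Il1rap, the chain that the receptors of interleukins 1, 33 and 36 share, went the other way. It had 2016, 1807, 1907, 1818 and 2789 in shControl and 1311, 1082, 1331, 1558 and 1590 in shOpn3. Every shOpn3 sample was below every control, and shControl replicate 5 stood above the other controls. The mean went from 2068 ± 412 to 1374 ± 207 normalized counts (SD, n = 5 each), and the level fell by 0.58 ± 0.14 on the log2 scale (adjusted p = 0.0107, limma). It kept its call in all 25 alternatives, with log2 fold changes from -0.67 to -0.43. Oligodendrocyte markers, of which 6 of 6 were lower, moved the same way as Il1rap, with sums of 692216 to 1177480 in shControl and 232898 to 443044 in shOpn3. Avp and Oxt were lower too (-2.35 and -2.21), as were the neuron markers Elavl4 (-0.57) and Uchl1 (-0.49), while 1 of the 5 neuron markers was higher. The part of any of these cells in the fall of Il1rap was not tested.

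The receptor that binds interleukin-1 itself, Il1r1, had 779, 1096, 1107, 1150 and 790 in shControl and 982, 1212, 1428, 1401 and 946 in shOpn3. The groups overlapped and the difference of 0.28 ± 0.15 was not called (adjusted p = 0.244, limma). Each shOpn3 sample was nevertheless above its own-numbered control, and the block gave an adjusted p of 0.00905. Il1rapl1, a relative that organises synapses, had 234, 254, 262, 223 and 230 in shControl and 355, 398, 308, 253 and 310 in shOpn3. It overlapped through shOpn3 replicate 4, and its call (0.42 ± 0.13, adjusted p = 0.0356, limma) was lost without any 1 of 8 libraries, all but shControl replicate 3 and shOpn3 replicate 4, with adjusted p from 0.0585 to 0.0820. Its paralog Il1rapl2 was not called (0.53, adjusted p = 0.0643) but passed by DESeq2 (0.0395) and without shControl replicate 4 (0.0333). The interleukin-36 receptor Il1rl2 was not called (0.71, adjusted p = 0.0573) but passed by DESeq2 (0.0281) and voom (0.0464), with the block (0.0379) and without shOpn3 replicate 1 (0.0441) or 2 (0.0486).

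**Figure D3:**
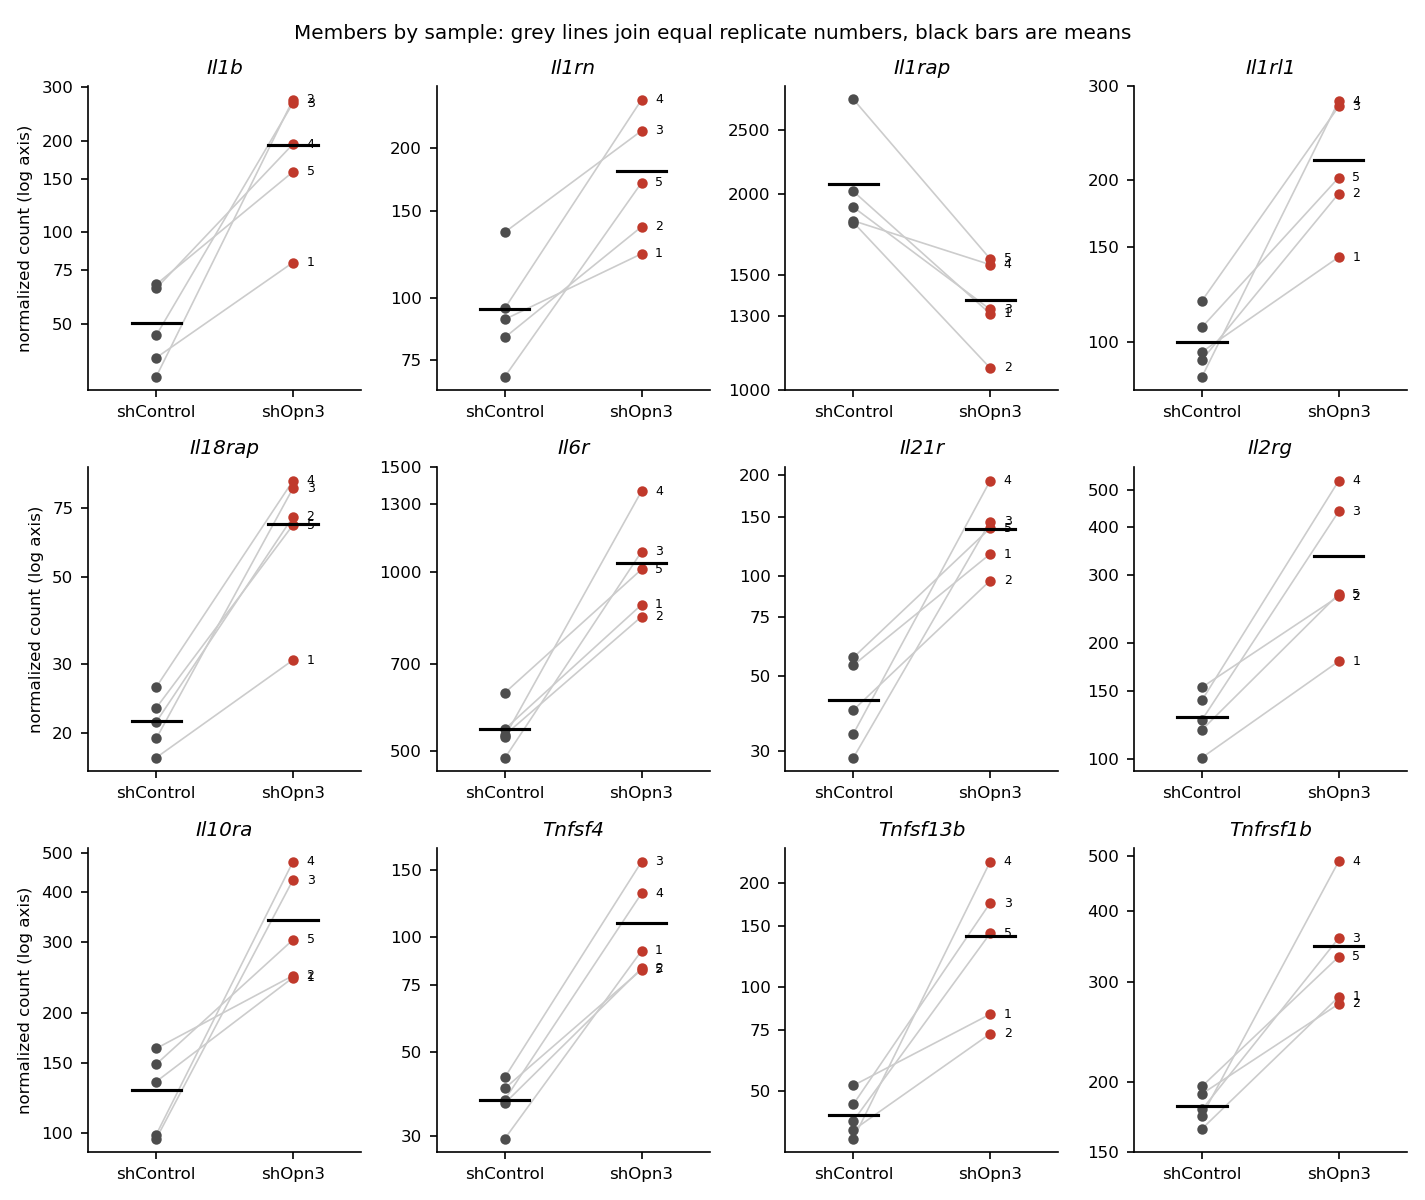
Normalized counts by sample (log axis) for members the text describes, with shControl left and shOpn3 right in each panel, grey lines joining equal replicate numbers and black bars for means. In Il1b the shControl samples lie from 33.6 to 67.5 and the shOpn3 samples from 79.6 to 273.

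The cytokines that use the common gamma chain, with interleukins 4 and 13, had 16 genes, of which 10 were tested. Of 7 tested receptors, 6 were higher, and of the 7 ligands only Il15 and Il21 could be tested. Il2rg, the common gamma chain, had 101, 154, 127, 142 and 119 in shControl and 179, 264, 439, 527 and 268 in shOpn3. Every shOpn3 sample exceeded every control, and the log2 fold change was 1.29 ± 0.26 (adjusted p = 0.00455, limma). Il2rb, which interleukins 2 and 15 share, had 20.4, 12.2, 13.3, 32.8 and 21.1 in shControl and 35.5, 38.2, 86.9, 101 and 44.2 in shOpn3. Its groups were apart, and it rose by 1.52 ± 0.35 (adjusted p = 0.010, limma). Il2ra, the high-affinity chain for interleukin-2, rose by 0.74 ± 0.16 (adjusted p = 0.00650), while Il2 itself had 1 read over all shControl libraries and 8 over all shOpn3 libraries.

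Il21r, the receptor of interleukin-21, had 54.0, 39.7, 28.6, 33.7 and 57.0 in shControl and 116, 96.6, 145, 192 and 139 in shOpn3. The gap between the groups was wide, and the log2 fold change of 1.68 ± 0.23 had the lowest adjusted p of the tested members, 0.000656 in limma. Il21, its ligand and a product of helper T cells, had 9.18, 17.3, 16.3, 12.2 and 15.8 in shControl and 3.84, 6.37, 4.67, 3.86 and 14.4 in shOpn3. Only shOpn3 replicate 5 lay within the control range. The level fell by 1.11 ± 0.35 (adjusted p = 0.0444, limma), but Il21 passed the filter only through shControl. Its call was lost in 15 of the 24 alternatives in which it was tested, among them leaving out any 1 of 8 libraries (adjusted p 0.0681 to 0.104; all but shControl replicate 1 and shOpn3 replicate 5), and in the authors' deposited table its adjusted p was 0.0686.

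Il15ra, which presents interleukin-15 to neighbouring cells, had 36.7, 26.5, 19.4, 30.0 and 59.1 in shControl and 46.1, 66.9, 85.0, 94.7 and 59.6 in shOpn3. It overlapped through shControl replicate 5, and its rise of 1.07 ± 0.29 (adjusted p = 0.0217, limma) was lost without shControl replicate 2, shOpn3 replicate 3 or shOpn3 replicate 4 (adjusted p 0.0534 to 0.0619). Il15, the ligand, had a log2 fold change of 0.22 (adjusted p = 0.426). Il13ra1, a signalling receptor of interleukins 4 and 13, rose by 0.82 ± 0.16 (adjusted p = 0.00417, limma), with its partner Il4r at 0.12 (adjusted p = 0.635). The decoy Il13ra2 was lowest in shOpn3 replicate 1, at 21.1 against 80.4 to 112 in the other shOpn3 samples and 40.8 to 70.2 in shControl. It was not called (0.34 ± 0.38, adjusted p = 0.590) and passed without that sample (0.76, adjusted p = 0.0211).

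Lymphocytes carry several of these receptors, and 5 of 7 tested T cell markers were higher. So were 9 of 10 microglial markers. Cd3e, a part of the T cell receptor complex, was at 18.6 ± 7.59 in the controls and 55.8 ± 30.9 under the Opn3 hairpin (SD, n = 5 each; normalized counts), and rose by 1.45 ± 0.38 (adjusted p = 0.020, limma). Cd8a rose by 1.04 (adjusted p = 0.0144), while Cd3d (0.63, adjusted p = 0.323) and Lck (0.18, adjusted p = 0.463) were not called. Of the NK cell markers, Nkg7 was called (1.09, adjusted p = 0.0374) but passed the filter only through shOpn3, and Prf1 was not called (adjusted p = 0.702). The part of lymphocytes, microglia or other cells in the rise of the receptors was not tested.

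Of the interleukin-6 and interleukin-12 family, 14 genes were listed, 9 were tested and 2, both receptors, were higher. Il6r, the ligand-binding chain of the interleukin-6 receptor, had 543, 531, 486, 528 and 626 in shControl and 880, 840, 1080, 1366 and 1009 in shOpn3. The controls were close together and every shOpn3 sample was above them, with a rise of 0.91 ± 0.13 (adjusted p = 0.000695, limma). RefSeq places Il6r over part of She, which had a log2 fold change of -0.25 (adjusted p = 0.420). Il6st, the signalling chain that Il6r and its relatives share, had 6386, 7488, 8049, 7390 and 6389 in shControl and 7155, 7166, 8945, 9229 and 7118 in shOpn3. It was not called (0.15 ± 0.10, adjusted p = 0.361, limma), and its groups overlapped over most of their range.

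Il23r, the specific chain of the interleukin-23 receptor, had 4.08, 5.09, 3.06, 6.55 and 3.16 in shControl and 11.5, 27.6, 17.8, 15.5 and 12.3 in shOpn3. Here too the groups were apart, and the rise was 1.71 ± 0.31 (adjusted p = 0.00250, limma), having passed the filter through shOpn3 alone. The chain of interleukin-23 that is its own, Il23a, was level between the groups, at 38.7 ± 6.20 and 40.4 ± 9.85 (SD, n = 5 each; adjusted p = 0.925, limma). Il12a, the smaller chain of interleukin-12, was below its own-numbered control in every shOpn3 sample. It had 141, 114, 138, 97.4 and 140 in shControl and 84.4, 86.0, 106, 92.7 and 108 in shOpn3, and was not called (-0.39 ± 0.15, adjusted p = 0.0853) but passed with the block (adjusted p = 0.0462), with quantile scaling (0.0196) and without shControl replicate 4 (0.0450). Il11ra1, the interleukin-11 receptor, was likewise not called (-0.32, adjusted p = 0.258; block adjusted p = 0.0486). Il11, Il12rb2 and Il27ra had adjusted p from 0.178 to 0.803.

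Both chains of the interleukin-10 receptor rose. Il10ra, the chain that binds the ligand, had 135, 163, 96.9, 99.2 and 149 in shControl and 245, 247, 429, 476 and 304 in shOpn3, with no overlap. Its log2 fold change was 1.37 ± 0.22 (adjusted p = 0.00135, limma). Il10rb, shared by the receptors of several relatives of interleukin-10, rose by 0.50 ± 0.13 (adjusted p = 0.0167), a call lost without shOpn3 replicate 3 (adjusted p = 0.0512). The ligand Il10 was seen in 0, 1, 2, 0 and 0 reads in shControl and 0, 0, 0, 1 and 0 in shOpn3, at or under the 3 reads that a count of 0 allows, so no fold is given. The binding protein Il22ra2 (0.52, adjusted p = 0.122) and the receptor Il20rb (-0.22, adjusted p = 0.623) were not called.

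Of the 7 tested genes of the interleukin-17 family, 0 were called by limma, edgeR or DESeq2 and 1, Il17ra, by voom, and 1 had an unadjusted p under 0.05 in limma. Their log2 fold changes ran from -0.24 to 0.55. Il17ra, the shared receptor chain, had 882, 730, 561, 684 and 957 in shControl and 898, 746, 1026, 1319 and 1129 in shOpn3. Each shOpn3 sample was above its own-numbered control, by little in replicates 1 and 2, and the adjusted p was 0.107 in limma (0.0447 without shOpn3 replicate 2). Il17rb, a receptor of interleukin-25, was not called (0.55, adjusted p = 0.227) but passed without shControl replicate 5, its highest control at 53.8 (0.80, adjusted p = 0.0375). Il17a and Il17f, the ligands made by T cells, each had at most 2 reads in any library. The only tested gene of the beta chain family, Il3ra, was not called (-0.22, adjusted p = 0.642).

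Il4i1, an enzyme that oxidises amino acids and is not a cytokine, is named for its induction by interleukin-4 and showed the second highest fold change of the members. It had 18.4, 12.2, 5.10, 5.62 and 19.0 in shControl and 22.1, 47.8, 138, 150 and 98.6 in shOpn3. The groups did not overlap, but shOpn3 replicate 1 lay just above the highest control. The log2 fold change was 2.70 ± 0.53 (adjusted p = 0.00438, limma). RefSeq places it over parts of Nup62 and Atf5, which had log2 fold changes of -0.05 (adjusted p = 0.773) and -0.39 (adjusted p = 0.0888). Il16, a chemoattractant that binds CD4, had 202, 196, 151, 197 and 216 in shControl and 268, 247, 496, 606 and 359 in shOpn3. Every shOpn3 sample was above every control, with a rise of 0.96 ± 0.23 (adjusted p = 0.0118, limma), and the call was lost when both samples of number 3 were left out. Il34, a ligand of Csf1r on which microglia depend, had 875, 789, 624, 789 and 922 in shControl and 1065, 866, 875, 924 and 976 in shOpn3. It was above its own-numbered control in all 5 pairs, by 0.24 ± 0.11, and was not called (adjusted p = 0.147, limma) but passed with the block (adjusted p = 0.0379) and by voom (0.0311).

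In the TNF superfamily 31 genes were listed and 21 tested, of which 10 were higher. By limma, edgeR and DESeq2 0 were lower, with 1 lower at an unadjusted p under 0.05. Ligands made up 5 of the 10. Tnfsf18, a co-stimulator of T cells through Tnfrsf18, had the highest fold change of all tested members. It had 3.06, 6.11, 2.04, 9.36 and 1.05 in shControl and 20.1, 34.0, 63.5, 63.8 and 18.5 in shOpn3. No values overlapped, and the log2 fold change was 3.0 ± 0.49 (adjusted p = 0.00158, limma), although the gene passed the filter only through shOpn3. Tnfsf4, a co-stimulator through Tnfrsf4, had 29.6, 36.6, 42.9, 37.5 and 40.1 in shControl and 92.1, 82.8, 158, 130 and 82.2 in shOpn3. All 5 shOpn3 samples were above all controls, with a rise of 1.48 ± 0.21 (adjusted p = 0.000691, limma).

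Tnfsf13b, the B cell survival factor BAFF, had 52.0, 38.7, 45.9, 36.5 and 41.1 in shControl and 83.5, 73.3, 175, 230 and 143 in shOpn3. Its groups did not overlap, and replicates 3 and 4 were the highest. It rose by 1.58 ± 0.29 (adjusted p = 0.00274, limma). Tnfsf9, a co-stimulator through Tnfrsf9, had 13.3, 4.07, 8.16, 14.0 and 14.8 in shControl and 31.7, 19.1, 30.8, 27.0 and 19.5 in shOpn3. It did not overlap and rose by 1.25 ± 0.33 (adjusted p = 0.020, limma), a call lost without shOpn3 replicate 3 (adjusted p = 0.0569). Tnfsf15, a ligand of Tnfrsf25, rose by 0.70 ± 0.22 (adjusted p = 0.0402, limma). That call did not hold with the block (adjusted p = 0.0524) or without shControl replicates 2, 3 or 4 or shOpn3 replicates 2, 3 or 4, each left out alone (0.0530 to 0.101).

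The other 3 tested ligands, Tnfsf10, Tnfsf13 and Tnfsf12, were not called. Tnfsf10, the apoptosis ligand TRAIL, had 500, 623, 629, 611 and 483 in shControl and 493, 772, 994, 1170 and 701 in shOpn3. Only shOpn3 replicate 1 stayed within the controls. Its difference of 0.48 ± 0.20 (adjusted p = 0.111, limma) passed without that sample (0.65, adjusted p = 0.0131), with the block (0.0222) and by DESeq2 (0.0380). Tnfsf13, a relative of Tnfsf13b, had a log2 fold change of 0.32 (adjusted p = 0.238), and Tnfsf12, the ligand of Tnfrsf12a, was at 355 ± 47.2 and 350 ± 77.8 (SD, n = 5 each; adjusted p = 0.905, limma).

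Both receptors of TNF rose, while Tnf, Ltb and Tnfsf11 were listed at 0 in all 10 samples and Lta had 4 reads in all, 3 of them in shOpn3 replicate 3. A 0 for Tnf says little about its RNA, since Map3k7, a kinase that most cells use, also had 1 read over all libraries. Tnfrsf1a, the widely made receptor with a death domain, had 669, 583, 564, 594 and 647 in shControl and 848, 687, 955, 1151 and 836 in shOpn3. It did not overlap and rose by 0.53 ± 0.12 (adjusted p = 0.0102, limma). Tnfrsf1b, the receptor that immune cells and microglia carry, had 165, 190, 179, 174 and 196 in shControl and 282, 274, 358, 489 and 332 in shOpn3. The gap between the groups was wider, and the rise was 0.91 ± 0.15 (adjusted p = 0.00169, limma).

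Tnfrsf13c, the receptor of Tnfsf13b on B cells, had 3.06, 8.14, 5.10, 12.2 and 2.11 in shControl and 14.4, 25.5, 67.3, 77.3 and 21.6 in shOpn3. The groups did not overlap, shOpn3 replicates 3 and 4 stood far above the rest, and the log2 fold change was 2.47 ± 0.52 (adjusted p = 0.00588, limma). It too passed the filter only through shOpn3. Of the B cell markers, 0 of 3 tested were called by limma, edgeR or DESeq2, and 0 had an unadjusted p under 0.05 in limma. Among them Ms4a1 was at 13.2 ± 6.02 and 18.7 ± 12.0 and Cd79b at 17.9 ± 10.6 and 22.6 ± 17.6 (SD, n = 5 each). Summed over the whole list, with Cd79a under the filter, they ranged from 17.3 to 72.1 in shControl and from 35.5 to 130 in shOpn3. Tnfrsf13b and Tnfrsf17, the other receptors that bind this ligand or its relative Tnfsf13, stayed under the filter.

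Tnfrsf12a, a receptor that injured tissue induces, had 134, 110, 77.6, 99.2 and 94.9 in shControl and 128, 146, 136, 209 and 173 in shOpn3. It overlapped, as shOpn3 replicate 1 lay below shControl replicate 1. Its rise of 0.61 ± 0.18 (adjusted p = 0.0298, limma) was lost without shControl replicates 3, 4 or 5 or shOpn3 replicates 4 or 5, each left out alone (adjusted p 0.0550 to 0.0733). Tnfrsf26, a further receptor of the family, rose by 0.68 ± 0.21 (adjusted p = 0.0390), a call lost without any 1 of 7 libraries, all but shControl replicates 2 and 3 and shOpn3 replicate 2 (0.0529 to 0.101).

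Tnfrsf14, a receptor that both stimulates and restrains lymphocytes, had 10.2, 19.3, 5.10, 21.5 and 4.22 in shControl and 13.4, 28.7, 54.2, 75.3 and 20.5 in shOpn3. Within each number shOpn3 was higher, but the groups overlapped, and its difference of 1.58 ± 0.53 missed the threshold (adjusted p = 0.0556, limma). It passed by edgeR (0.0488) and DESeq2 (0.0150), with the block (0.0212) and without shControl replicate 2 (0.0489), shControl replicate 4 (0.0410) or shOpn3 replicate 1 (0.0261). The partners of 3 called ligands were not called by limma: Tnfrsf4 had a log2 fold change of 1.45 (adjusted p = 0.136; called by voom, 2.08, adjusted p = 0.00991), Tnfrsf9 of -0.24 (adjusted p = 0.458) and Tnfrsf25 of -0.33 (adjusted p = 0.618). Tnfrsf18, the partner of Tnfsf18, had 15 reads over all shControl and 32 over all shOpn3 libraries and was not tested. Whether ligand and receptor of a pair changed by different amounts was not tested.

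Receptors with many reads in this tissue were among those not called. Tnfrsf21, a receptor with a death domain that neurons carry, had 3470, 3249, 3312, 3050 and 2520 in shControl and 3369, 3023, 2766, 2634 and 2770 in shOpn3, with a log2 fold change of -0.10 ± 0.10 (adjusted p = 0.543, limma). Tnfrsf11b, a soluble decoy that binds Tnfsf11 and Tnfsf10, had 871, 979, 1084, 1149 and 769 in shControl and 866, 1007, 1122, 1242 and 782 in shOpn3. Samples with equal numbers lay close together, and the log2 fold change was 0.04 ± 0.14 (adjusted p = 0.867, limma). Tnfrsf19 (0.17, adjusted p = 0.178) and Tnfrsf11a, the receptor of Tnfsf11 (-0.39, adjusted p = 0.136), were not called.

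Restraints were set against the signal or receptor they oppose in 6 log2 ratios within each sample, and the 2 receptors of TNF against each other in 1 more. These 7 were compared by an exact two-sided permutation test whose smallest p is 0.00794 for 5 against 5 samples. After Benjamini-Hochberg adjustment over the 7, a single ratio with that smallest p cannot go below 0.0556, so 1 complete separation alone could not pass, and 0 of the 7 did. The ratio of Tnfrsf1b to Tnfrsf1a went from -1.75 ± 0.16 to -1.38 ± 0.13 (SD, n = 5 each), a difference of 0.37 with no overlap and in 5 of 5 pairs. Its exact p was that smallest value, 0.00794, and 0.0556 after adjustment. The ratio of Il1rn to Il1b was 0.92 ± 0.62 in shControl and -0.04 ± 0.62 in shOpn3, a difference of -0.96 (exact p = 0.0556, adjusted 0.167), lower in 4 of 5 pairs. That of Il1r2 to Il1r1 differed by 0.48 (exact p = 0.0714, adjusted 0.167). The other 4 differed by 0.31 for Il1rn to Il1a, 0.10 for Il18bp to Il18, -0.49 for Il13ra2 to Il13ra1 and 0.44 for Tnfrsf11b to Tnfrsf11a, with adjusted exact p from 0.222 to 0.865.

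**Figure D4:**
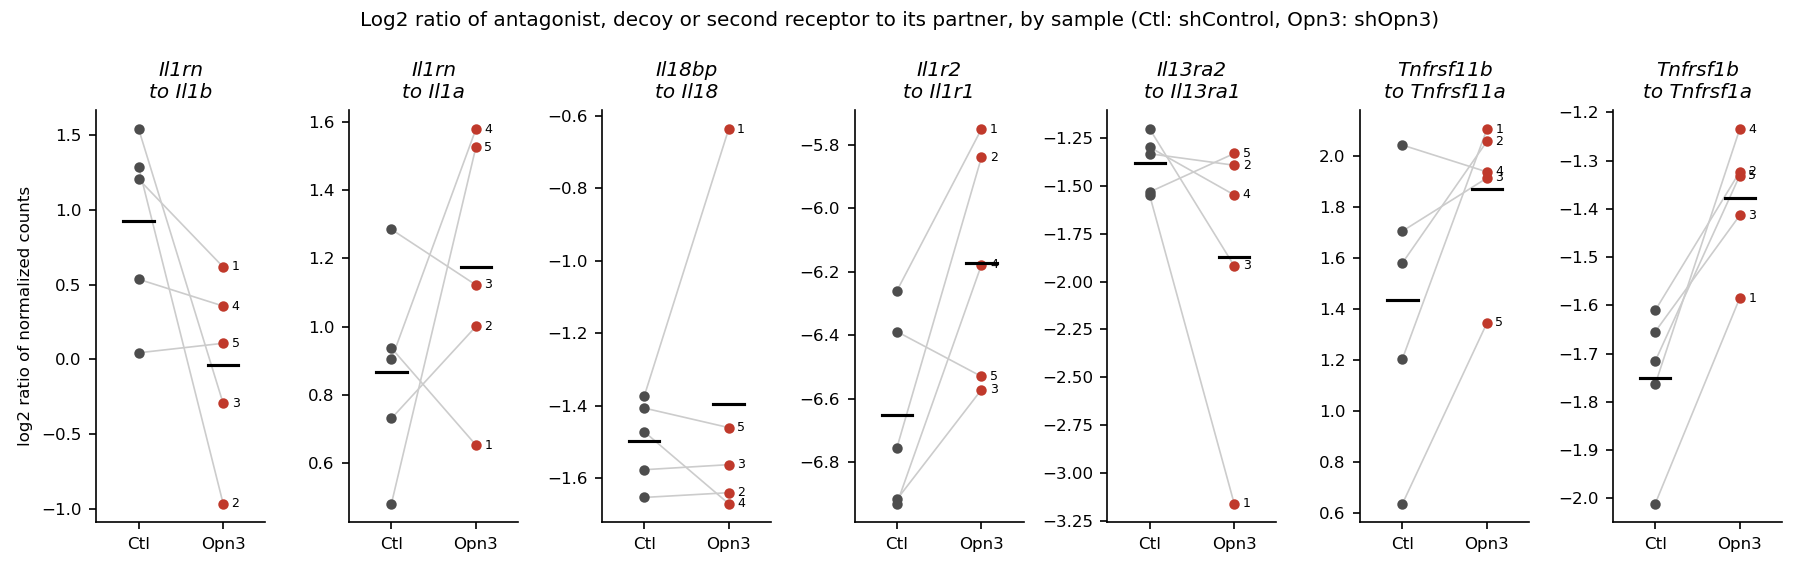
Log2 ratios (y axis) within each sample for the 7 pairs of a restraint or second receptor and its partner, shControl left and shOpn3 right in each panel, with black bars for means. The 2 groups are apart only for Tnfrsf1b to Tnfrsf1a, with means of -1.75 and -1.38.

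The 40 members under the filter were read as whole reads, which could be recovered from the deposited values. Of these, 8 had 0 reads in all samples, 13 more had at most 3 reads in every sample, and 19 had over 3 reads in some sample. More reads fell in shOpn3 than in shControl for 28 of the 40 and fewer for 3. The share among all genes under the filter was not counted, so no direction is read from this. Some of these sums rest on few reads, such as 0 in shControl against 4 in shOpn3 for Lta. Il6, the pyrogen and acute-phase signal, had 2, 1, 0, 1 and 2 reads in shControl and 15, 36, 8, 9 and 6 in shOpn3. It did not overlap, and in the fit with no filter on low values its log2 fold change was 2.65 ± 0.48 (adjusted p = 0.00308, limma). In the authors' deposited table it was 3.62, with an adjusted p of 1.77e-04. Both the ligand and its receptor Il6r were thus higher, the ligand on 74 reads over 5 libraries.

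Il12b, the larger chain of interleukins 12 and 23, had 0, 4, 0, 0 and 2 reads in shControl and 0, 8, 27, 19 and 2 in shOpn3. Most of its reads came from shOpn3 replicates 3 and 4, and it did not pass with no filter (adjusted p = 0.154, limma), whereas its adjusted p in the authors' deposited table was 0.0395. Tnfrsf8, a receptor of activated lymphocytes, had 5, 5, 3, 4 and 4 reads in shControl and 11, 11, 17, 15 and 8 in shOpn3. It did not overlap and had a log2 fold change of 1.31 ± 0.27 with no filter (adjusted p = 0.00744, limma). Its ligand Tnfsf8 had 6, 6, 2, 4 and 6 reads against 15, 10, 9, 17 and 6 (adjusted p = 0.0718). Il27, a partner chain of Ebi3, had 4 reads over all shControl and 20 over all shOpn3 libraries (adjusted p = 0.0906). In all, the authors' deposited table gave an adjusted p for 81 members, under 0.05 for 41, of which 39 were higher and 2 lower. The share of all genes under 0.05 in that table was not counted, so no excess among the members is read from the 41. These 41 held 32 of the 33 called here. Both analyses used the same counts, so this overlap adds no independent evidence.

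**Figure D5:**
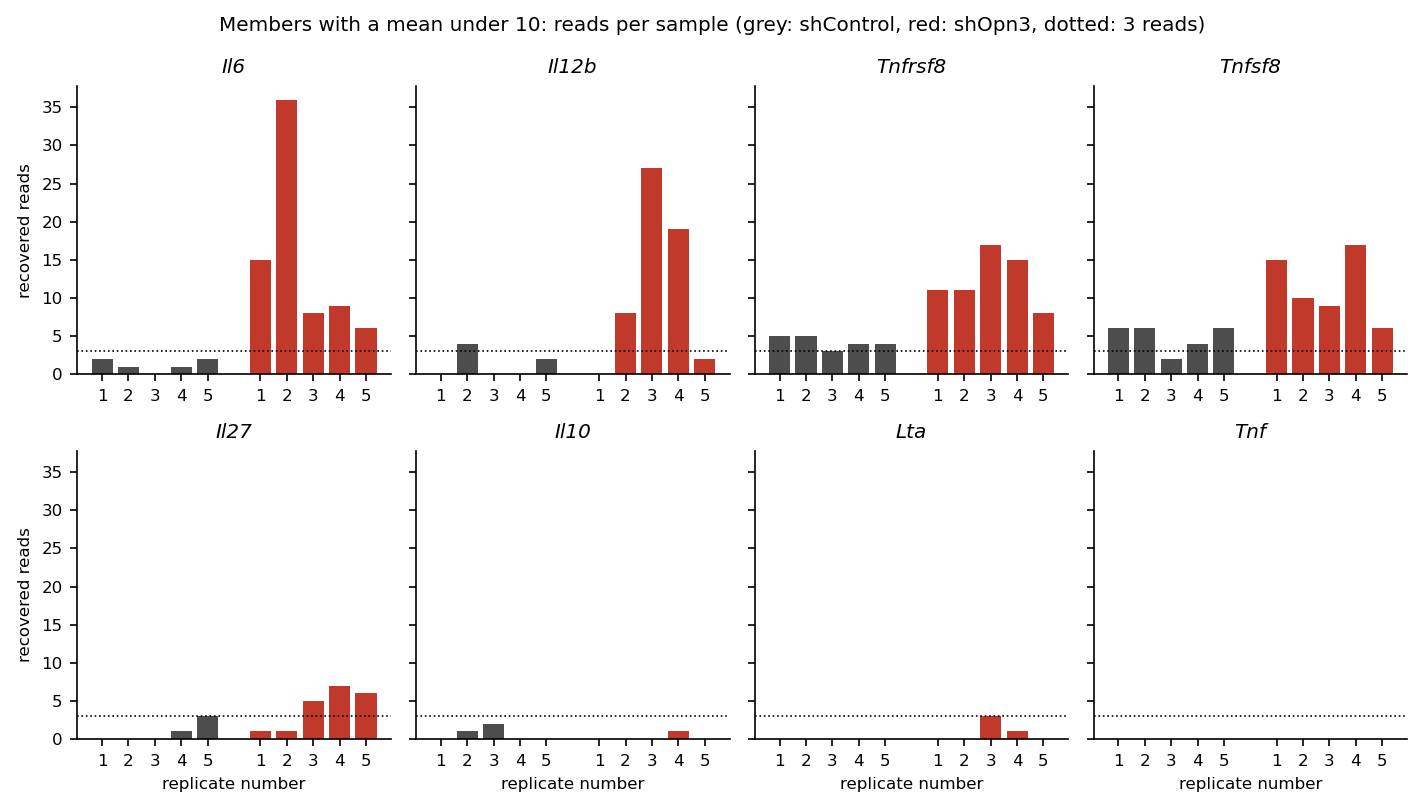
Recovered reads per sample for members with a mean under 10 (shControl grey, shOpn3 red, replicate numbers on the x axis), with a dotted line at the 3 reads that a count of 0 allows. Il6 has 0 to 2 reads in shControl and 6 to 36 in shOpn3.

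Genes of the same pathways with other names were read from 5 lists. Their counts stand beside 10.4% of all genes tested called higher and 8.48% called lower. By limma 0 genes of each list were lower, and 1, 3, 2, 0 and 0 were lower at an unadjusted p under 0.05, in the order of the lists below. Of 9 tested TNF superfamily genes with other symbols, 2 were higher: Fas, a death receptor, rose by 1.12 ± 0.15 (adjusted p = 0.000575, limma) and Cd40, a co-stimulatory receptor, by 0.69 ± 0.21 (adjusted p = 0.0356). Of 16 tested cytokines and receptors of the interleukin-6 and colony-stimulating families, 7 were higher. They included Csf2rb, the common beta chain (2.11 ± 0.23, adjusted p = 0.000275), and Csf3r, the receptor of granulocyte colony-stimulating factor (1.40, adjusted p = 0.00116). They also held Csf1r, the receptor of Il34 (1.06, adjusted p = 0.00128), and Lif, a ligand that signals through Il6st (1.59, adjusted p = 0.00305).

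Downstream of the interleukin-1 receptors 7 of 13 tested genes were higher, and DESeq2 called Irak1 and Tollip lower. Nlrp3, the sensor of the inflammasome, rose by 1.20 ± 0.20 (adjusted p = 0.00170, limma), and Casp1, which cleaves Il1b and Il18, by 0.87 (adjusted p = 0.00900). The adaptors Myd88 (0.65, adjusted p = 0.00552) and Irak2 (0.43, adjusted p = 0.00573) rose less. Of 17 tested JAK, STAT and SOCS genes, 7 were higher, with Socs3, the feedback inhibitor of Il6st signalling, at 1.31 ± 0.29 (adjusted p = 0.00802), Stat6 at 0.63 (adjusted p = 0.00909) and Stat2 at 0.57 (adjusted p = 0.0155). Of 28 tested TNF receptor adaptors and NF-kappaB genes, 12 were higher. Bcl3, a nuclear partner of NF-kappaB, rose by 1.60 ± 0.23 (adjusted p = 0.000737, limma), the ubiquitin ligase Birc3 by 1.31 (adjusted p = 0.000398), the feedback inhibitor Tnfaip3 by 0.93 (adjusted p = 0.000812) and Nfkb1 by 0.51 (adjusted p = 0.00283). Rela, the NF-kappaB subunit with a transactivation domain that most cells use, was not called (-0.10, adjusted p = 0.749).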

How the data were processed

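The authors deposited 1 table of gene values for 10 samples. Per the submitters' processing notes, FastQC, STAR, featureCounts and DESeq2 were used; their versions, the genome build, the annotation and the strand setting were not given in the sources used here. Each sample's deposited signal was a read count divided by 1 size factor: all values were whole multiples of 1 read's worth (tolerance 0.01), so reads were recovered for 100% of them. Per the file headers, the authors' comparison gives a log2 fold change, a Wald score, a p-value and an adjusted p-value. There were 0 columns of samples outside the series.

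Values were analysed as log2(normalized count + 1) with limma 3.58.1 (R 4.3.3; a linear model of the group alone, moderated with a mean trend; two-sided; Benjamini-Hochberg), on genes with a mean of at least 10. The script was tested on simulated data. Alternatives were pseudocounts of 0.5 and 4, no filter, a mean of at least 50, TMM and quantile scaling, edgeR 4.0.16 quasi-likelihood and DESeq2 1.42.0 on recovered reads, voom with quality weights, a replicate block, and leaving out each sample and each number.

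Each rat gave both sides, per the labels, although no label says that equal numbers mark the same rat. Deviations from each group's mean correlated positively in all 5 same-numbered pairs, with r from 0.12 (replicate 4) to 0.44. For other numbers the median was -0.21 and the range -0.45 to 0.36, so replicate 4 lay within that range and the others above it. Centring within groups also lowers the r of other numbers where that of equal numbers is high. The numbers were read as likely pairs in the block fit and in the counts of pairs. The main limma test and the permutation test of the ratios did not use them.

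Values in every sample are given for called members with a log2 fold change of at least 1 in size, for the 8 lowest adjusted p in each direction and for a list of well-known members. Some genes that met these rules are not reported here. Names shown beyond that rule were chosen after their values were seen. The members and gene lists were chosen with earlier results of these data known. In RefSeq (GRCr8) 36 of the 110 members overlapped another gene, 19 of them a coding gene. The limit that a count of 0 allows is 3 reads, for counting error only.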

Additional observations from a re-analysis of the deposited data

Results flagged for a closer look

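In 8 of 154 sets of 5 values examined (each measure in each group), 1 sample stood apart from the other 4 by more than Dixon's 95% limit; 1 in 20 would do so by chance, or 7.7. Among normalized counts, these were Il17rb in shOpn3 replicate 4 (29.9, next 40.2), Il18 in shControl replicate 5 (424, next 381), Il1rap in shControl replicate 5 (2789, next 2016), Il21 in shOpn3 replicate 5 (14.4, next 6.37), Il25 in shOpn3 replicate 1 (23.0, next 14.0) and Tnfrsf4 in shOpn3 replicate 4 (27.0, next 12.3). Among log2 ratios, these were Il18bp to Il18 in shOpn3 replicate 1 (-0.64, next -1.46) and Tnfrsf11b to Tnfrsf11a in shOpn3 replicate 5 (1.34, next 1.91).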

How the results depend on the processing

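Over 25 alternatives 19 of the 33 called members kept their call wherever they were tested, 14 lost it in some, and 0 changed direction. The number called (33) ranged from 20 to 35 and the number called higher (31) from 19 to 34 when samples were left out, lowest without replicate 3. The number called lower (2) was 1 with no filter, a mean of at least 50, edgeR and DESeq2, 4 with quantile scaling and with the replicate block, and 1 to 2 when samples were left out. Over all genes, 2940 were called, 5085 by voom, 4726 with the replicate block, and 1604 to 3056 when samples were left out (1895 without replicate 2, 1604 without replicate 3). With the block 40 members were called. Calls were lost most often for Il21 (15 of 24), Il1rapl1 and Tnfrsf26 (13 of 25 each), Tnfsf15 (12 of 25) and Il1a and Tnfrsf12a (9 of 25 each); Il16, Il18r1, Il2rb, Tnfrsf1a, Tnfsf9 and Il10rb lost theirs without replicate 3, and Il1rn without replicate 4 or 5. Among the members, signs turned only in uncalled ones, whose log2 fold changes lay between -0.33 (Tnfrsf25) and 0.13 (Il27ra): with voom Il17rc was 0.0368, Il3ra 0.19, Tnfrsf11b -0.12, Tnfrsf25 0.13 and Tnfsf12 0.0102; Il17re was 0.00592 with edgeR and 0.0173 with DESeq2; with quantile scaling Il23a was -0.14 and Il27ra -0.12. With samples left out the log2 fold change ran from -0.27 to 0.0377 for Il17rc, -0.14 to 0.17 for Il17re, -0.0459 to 0.149 for Il23a, -0.26 to 0.0560 for Il25, -0.0324 to 0.28 for Il27ra, -0.37 to 0.0251 for Il3ra, -0.0377 to 0.13 for Tnfrsf11b and -0.16 to 0.0398 for Tnfsf12. The log2 ratio of Il18bp to Il18 was -0.0870 without shOpn3 replicate 1. Opn3 kept its call, from -2.14 to -1.60 with samples left out. The cause of these changes was not tested. Members under 10 counts are limited by depth.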
